A study of Homo sapiens with 2 samples.

Results

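The MHC class II genes and their transactivator CIITA were followed in RNA sequencing libraries of H1944, an established cell line from a human lung adenocarcinoma. Of the 59125 rows with a count, 8 were taken by symbol, namely HLA-DRA, HLA-DRB1, HLA-DPA1, HLA-DPB1, HLA-DMA, HLA-DMB, CD74 and CIITA, and each symbol had 1 row. The shCON group was labelled as control and the shUSP12 group as USP12-knockdown. Both were made with short hairpin RNAs, according to the study, to find which transcripts change when USP12, a deubiquitinase, is depleted. Each group held 1 library, with 18249112 counts in shCON and 17475359 in shUSP12. No difference given here therefore has a replicate check, no p-value was computed, and every statement compares these 2 libraries. The study describes a hairpin against GFP as its control, while the shCON count column is headed SHRFP, so the control hairpin of this library is uncertain. Which USP12 hairpin was used and whether the cells were a clone or a pool were not given in the sources used here. USP12 itself had 711 counts in shCON and 219 in shUSP12, so its direction followed the labels.

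MHC class II molecules are pairs of an α and a β chain that display peptides from endocytosed proteins to CD4+ T cells. CD74, the invariant chain, fills the peptide groove of new molecules until HLA-DM, made of the HLA-DMA and HLA-DMB chains, helps to exchange its remnant for a peptide. CIITA does not bind DNA itself but docks on the RFX, CREB and NF-Y proteins at the X and Y boxes of class II promoters. Professional antigen-presenting cells produce it constitutively, whereas most other cells produce it after interferon-γ signals through its receptor, JAK kinases and IRF1. In the lung, alveolar type II epithelial cells are known to carry class II molecules.

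The promoter letters that this system reads are shown for 3 members, since the members with the same letters differed in their counts. RefSeq windows on GRCh38.p14, from 250 bases before to 50 bases after each start site, were at hand for 6 of the 8 members. HLA-DRA and CIITA were not among them. The 150 bases before the start site are printed 5′ to 3′ on the strand of the gene, with capitals for the X box core ACNGATG and the Y box CTGATTGG. The windows were chr6:32589849-32589998 for HLA-DRB1, chr6:32953098-32953247 for HLA-DMA and chr6:32941029-32941178 for HLA-DMB, all on the minus strand. The RefSeq start site of HLA-DMA lies within the longer gene span given for it below.
HLA-DRB1: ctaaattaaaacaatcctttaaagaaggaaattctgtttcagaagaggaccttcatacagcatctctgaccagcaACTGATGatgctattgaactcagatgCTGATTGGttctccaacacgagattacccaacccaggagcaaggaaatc
HLA-DMA: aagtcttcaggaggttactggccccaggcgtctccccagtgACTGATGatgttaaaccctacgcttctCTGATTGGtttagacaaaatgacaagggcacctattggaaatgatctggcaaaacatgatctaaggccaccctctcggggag
HLA-DMB: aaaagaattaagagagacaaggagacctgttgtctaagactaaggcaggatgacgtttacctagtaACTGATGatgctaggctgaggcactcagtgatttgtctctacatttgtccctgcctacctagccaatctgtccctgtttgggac

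HLA-DRB1 held the X core at position −75 from its start site and the Y box at −49, with 19 bases between them. HLA-DMA held the same letters at −109 and −82, with 20 bases between them. HLA-DMB held the X core at −84 and no Y box of these letters. Both strands were searched and the 2 motifs share no base. Of 35116 promoter windows of the same length, 7.65% held the X core and 3.97% the Y box, and 6 windows (0.0171%) held the X core followed by the Y box after 10 to 30 bases. Of these 6, 4 belonged to class II genes, namely HLA-DRB1, HLA-DRB5, HLA-DQB1 and HLA-DMA, and the others to PCDHB9 and SPDYE4. The letters were themselves written from knowledge of class II promoters, so this share is a description. CD74 held an X core at −209 on the other strand. The 2 windows of HLA-DPA1 and that of HLA-DPB1 held neither motif in these exact letters. Looser forms of the boxes were not searched. The interferon regulatory factor core AANNGAAA, held by 22.8% of all windows, occurred in 1 of the 6 members, HLA-DPB1. The STAT motif TTCNNNGAA (7.66% of windows) and the E box CACGTG (7.26%) occurred in none of the 6.

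Class II transcripts were at or near 0 in both libraries. All 8 members summed to 96 counts in shCON and 80 in shUSP12. The smallest level taken as detectable, 3 counts, corresponded to 0.172 CPM (reads of the gene per 1000000 counted reads) in shCON and 0.164 CPM in shUSP12 after scaling by trimmed mean of M values (TMM). By this measure 4 of the 8 members exceeded the floor in both libraries, CD74 in shUSP12 alone, and 3 in neither. Exact Clopper-Pearson intervals at 95% are given. They describe counting error alone, because each group held 1 library. Even this error may be understated, because without molecular identifiers several reads may come from a single molecule.

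Of the 4 members that form the presenting chains, 3 were at or near 0. HLA-DRA, the invariant α chain of HLA-DR (chromosome 6, 32439878 to 32445046), had 0 counts in shCON against 2 in shUSP12. HLA-DRB1, the polymorphic β chain that pairs with it (chromosome 6, 32577902 to 32589848), had 0 counts in both, which allows up to the 3-count floor given above, or up to 0.212 CPM in shCON and 0.202 CPM in shUSP12 by the exact interval. HLA-DPB1, the β chain of HLA-DP (chromosome 6, 33075990 to 33089696), also had 0 counts in both. A difference in these 3 genes was not detectable at this depth, and no ratio was formed.

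HLA-DPA1, the α chain of HLA-DP (chromosome 6, 33064569 to 33080775), was the member whose libraries differed most. It gave 26 counts, that is 1.49 CPM (95% interval 0.974 to 2.19), in shCON against 6 counts, that is 0.328 CPM (95% interval 0.120 to 0.714), in shUSP12. The CPM intervals did not overlap. The shUSP12 level was 22.0% of the shCON level, a log2 ratio of −2.19 (95% interval −3.76 to −0.87), or −1.90 after 0.1 CPM was added to each value. Other log2 ratios given without further remark include this pseudocount, and their intervals do not. The α chain was thus read in both libraries without counts for its partner HLA-DPB1. Only 96 exon bases of the 2 genes overlap, on opposite strands, or 1.67% of the exon bases of HLA-DPA1. In bulk RNA, fewer cells with the transcript and less transcript per cell cannot be told apart.

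**Figure D1:**
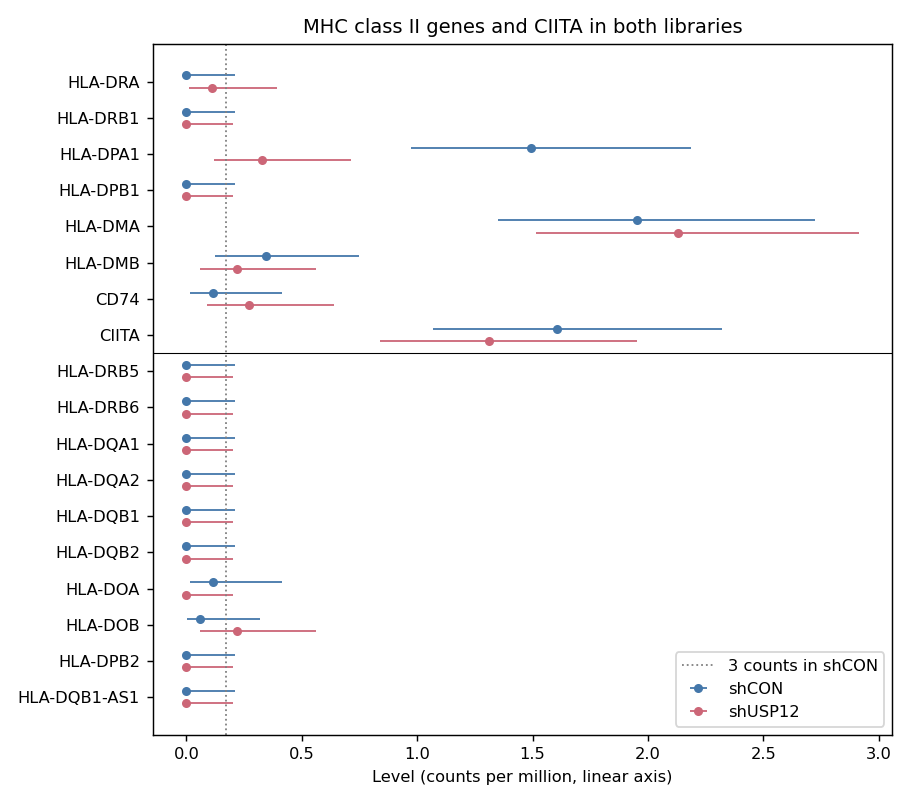
Level of each class II gene (x axis, CPM, linear) in shCON (blue) and shUSP12 (red), with the 8 members above the black line and 10 other class II genes below it. Points are single libraries, bars are 95% counting intervals, and the dotted line marks 3 counts in shCON. HLA-DMA, CIITA and, in shCON, HLA-DPA1 lie clear of the dotted line, and HLA-DPA1 is the member whose bars do not overlap.

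HLA-DMA, the α chain of the peptide exchange factor (chromosome 6, 32948613 to 32969094), had the most counts of the members in both libraries. It gave 34 counts, that is 1.95 CPM (95% interval 1.35 to 2.73), in shCON against 39 counts, that is 2.13 CPM (95% interval 1.52 to 2.91), in shUSP12. The log2 ratio was 0.12 (95% interval −0.57 to 0.84), so the libraries differed by less than the counting error. HLA-DMB, the β chain of the same factor (chromosome 6, 32934629 to 32941028), had only 6 counts in shCON against 4 in shUSP12, with a log2 ratio between −2.92 and 1.42 at 95%. The exchange factor was therefore read mainly through its α chain. HLA-DMA carries the same promoter letters as HLA-DRB1, printed above, and HLA-DRB1 had no count. Of the exon bases of HLA-DMA, 55 also belong to BRD2 on the opposite strand, read 6362 times in shCON and 5759 times in shUSP12. The strand setting of the counting was not given, and the part of BRD2 reads in the HLA-DMA counts was not tested.

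CD74 (chromosome 5, 150401637 to 150412969) had 2 counts in shCON against 5 in shUSP12. The ratio without a pseudocount was 1.25 on the log2 scale, and its 95% interval from −1.36 to 4.64 spanned both directions. CIITA (chromosome 16, 10866222 to 10943021) gave 28 counts, that is 1.61 CPM (95% interval 1.07 to 2.32), in shCON against 24 counts, that is 1.31 CPM (95% interval 0.840 to 1.95), in shUSP12. Its log2 ratio was −0.27 (95% interval −1.14 to 0.55). Counts of CIITA were thus close in the 2 libraries. Among its usual targets, HLA-DRA and CD74 had at most 5 counts, HLA-DMA 34 and 39, and HLA-DPA1 26 and 6. Counts take no account of gene length, and levels per length are compared below. DEXI, on the opposite strand, shares 10.7% of the exon bases of CIITA and was read 53 times in shCON and 89 times in shUSP12, and its part in the CIITA counts was not tested.

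When the difference between the libraries was counted over the whole table, 2 of the 8 members, HLA-DMA and CIITA, reached a mean of at least 1 CPM. Neither was at least 2-fold higher or lower in shUSP12, against 6.48% of the 14612 rows tested that were 2-fold higher and 3.01% that were 2-fold lower. Of these changed rows 68.3% were higher, or 79.6% when scaled to total counts. The median log2 ratio of these 2 members was −0.08, beside −0.01 over all rows tested. HLA-DPA1 missed the filter, with a mean of 0.910 CPM. With a mean of at least 0.1 CPM, 5 members entered. Of these, 0 were 2-fold higher, where 12.5% of all rows were, and 1, HLA-DPA1, was 2-fold lower, where 7.13% of all rows were. With a pseudocount of 1 CPM the log2 ratio of HLA-DPA1 was −0.91, under 2-fold. The summed level of the 8 members was 5.51 CPM in shCON and 4.37 CPM in shUSP12, which gives a log2 ratio of −0.33 (95% interval −0.78 to 0.11). Without HLA-DPA1, a choice made after its values were seen, the sum was 70 counts in shCON and 74 in shUSP12, which gives a log2 ratio of 0.01 (95% interval −0.48 to 0.50).

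Other genes of the class II system had at most 4 counts in either library. Of 12 listed, 10 had a row, and 8 of these had 0 counts in both libraries, among them both chains of HLA-DQ (HLA-DQA1 and HLA-DQB1) and HLA-DRB5. HLA-DOA and HLA-DOB, the chains of the factor that restrains HLA-DM, had 2 and 1 counts in shCON and 0 and 4 in shUSP12. Together with the members, 12 of 18 class II genes had at most 3 counts in each library. These 18 include rows that are not protein-coding, among them the pseudogene HLA-DRB6 and the antisense RNA HLA-DQB1-AS1, both with 0 counts. Of the 19831 protein-coding rows, 24.9% had at most 3 counts in each library, a share over a different kind of set. Reads that fit several HLA-DR β genes equally well are left out when only uniquely mapped fragments are counted, and their number was not tested. Genes annotated on the same strand, all with 0 counts, shared exon bases with some class II genes. The shares were 6.35% for HLA-DMA, 9.49% for HLA-DMB, 10.5% for CIITA and 30.4% for HLA-DOB.

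Levels of different genes were compared per length, as counts divided by the bases of all annotated exons and scaled to 1000000 in each library (TPM). In shCON the order was HLA-DMA at 2.84 TPM (95% interval 1.97 to 3.97), HLA-DPA1 at 0.953 (0.623 to 1.40), HLA-DMB at 0.274 (0.101 to 0.597) and CIITA at 0.262 (0.174 to 0.378). The last 2 did not differ beyond their intervals. In shUSP12 HLA-DMA had 3.45 TPM (95% interval 2.45 to 4.72), and the intervals of CD74 (0.246 TPM), CIITA (0.237), HLA-DPA1 (0.233) and HLA-DMB (0.193) overlapped each other. Class I genes ranged in shCON from 5.62 TPM for HLA-F to 619 TPM for HLA-C. The levels depend on the length used. Over the canonical transcript alone, shCON had 3.80 TPM of HLA-DMA, 1.86 of HLA-DPA1, 0.544 of HLA-DMB and 0.213 of CIITA, in the same order. In shUSP12 the order changed, with HLA-DMA at 4.59 TPM, HLA-DPA1 at 0.453, CD74 at 0.389, HLA-DMB at 0.382 and CIITA at 0.192. HLA-DRA had 0.208 TPM there.

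**Figure D2:**
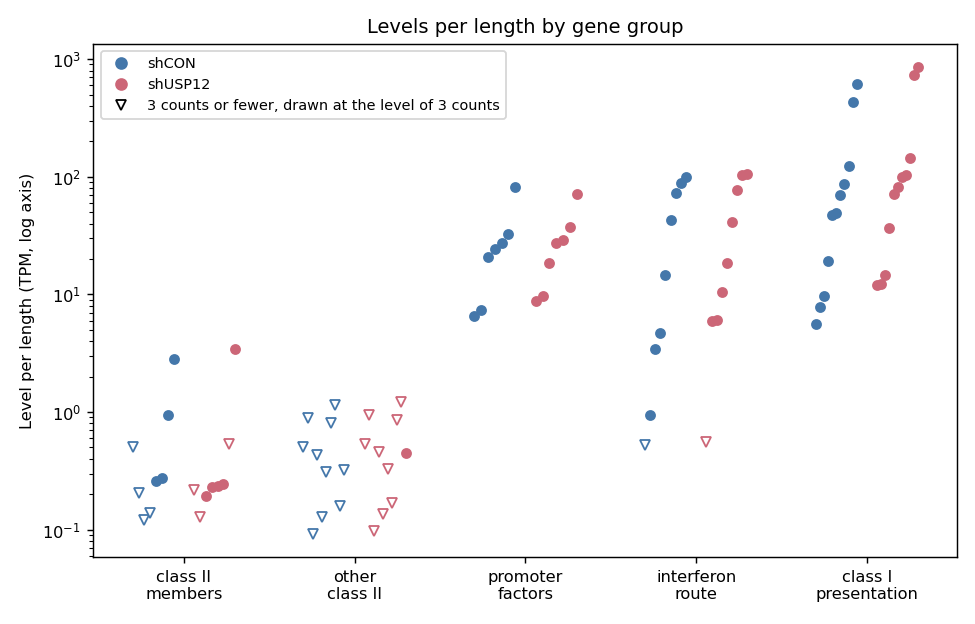
Level per length (y axis, TPM, log scale) of the genes of 5 lists (2 genes not drawn) in shCON (blue) and shUSP12 (red), 1 point per gene and library. Open triangles are genes with 3 counts or fewer, drawn at the level that 3 counts would give. The class II genes lie at or below 3.45 TPM, and the class I genes from 5.62 TPM (HLA-F in shCON) to 851 TPM (B2M in shUSP12).

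The members on chromosome 6 lie within 650 kb that also hold genes of class I presentation. Between 32439878 and 33089696, 20 protein-coding genes of the tables are annotated, 13 of them class II genes. The 13 class II genes summed to 69 counts in shCON against 55 in shUSP12. The other 7 summed to 9489 and 9854. TAP1 and TAP2, which encode the peptide transporter, and PSMB8 and PSMB9, subunits of the immunoproteasome, had between 306 and 1566 counts in shCON and between 547 and 1754 in shUSP12. PSMB9 was higher in shUSP12 (log2 ratio 0.76, 95% interval 0.56 to 0.97), as were PSMB8 (0.45, 0.32 to 0.59) and TAP2 (0.43, 0.26 to 0.61). The interval of TAP1 included 0 (0.09, −0.01 to 0.19), but lay above 0 when scaled to total counts or by DESeq2 size factors. The class II genes were thus low in a region where 5 of the 7 other genes passed the filter, while the last 2 of the 7 had 0 counts.

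**Figure D3:**
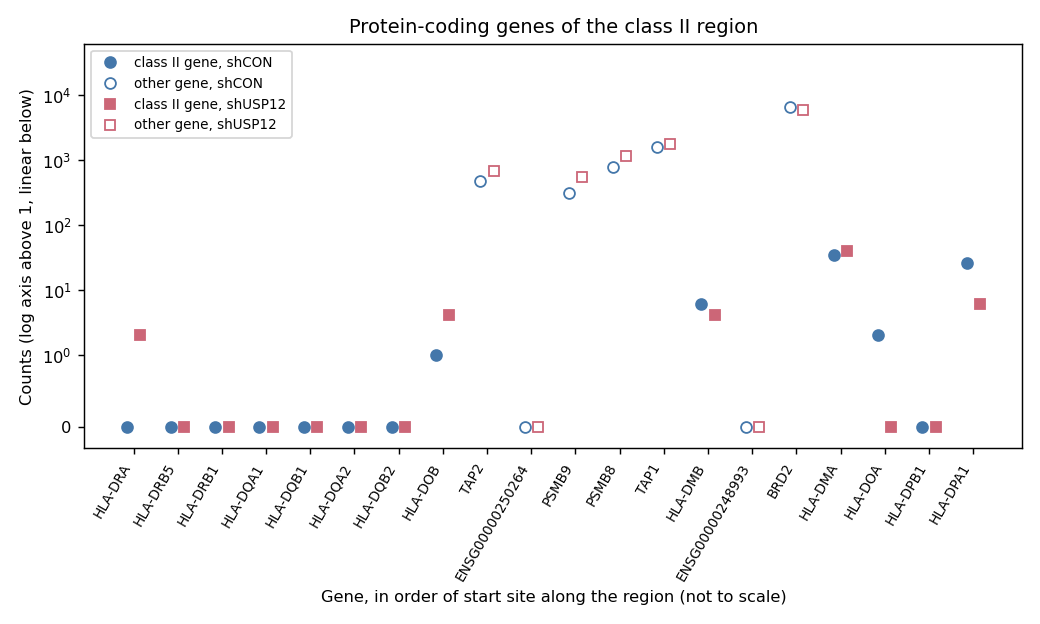
Counts (y axis, log above 1 and linear below) of the 20 protein-coding genes of the class II region in order of start site (x axis, not to scale), for shCON (circles) and shUSP12 (squares). Filled marks are class II genes and open marks are other genes. BRD2, TAP1, TAP2, PSMB8 and PSMB9 have between 306 and 6362 counts, whereas no class II gene has more than 39.

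The proteins on which CIITA docks were transcribed in both libraries. All 7 listed genes passed the filter, 0 were 2-fold higher or lower, and their median log2 ratio was 0.07. Among all tested rows 6.48% were 2-fold higher and 3.01% lower, with a median of −0.01, so 0 of 7 says little. RFX5, the DNA-binding subunit of the RFX complex, had 1780 counts in shCON and 1446 in shUSP12, which gives a log2 ratio of −0.37 (95% interval −0.47 to −0.27). Its partners RFXAP, with 72 and 101 counts, and RFXANK, with 287 and 324, had intervals that included 0. Among the NF-Y subunits, NFYA was lower in shUSP12 (807 and 759 counts, log2 ratio −0.16, 95% interval −0.30 to −0.01), NFYB was lower in shUSP12 (480 and 408 counts, log2 ratio −0.30, 95% interval −0.50 to −0.11), and the interval of NFYC included 0 (921 and 1014 counts). Scaling to total counts raised every ratio by 0.13 on the log2 scale. The intervals of NFYA and NFYB then included 0, and those of RFXAP, RFXANK and NFYC lay above 0.

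The route from interferon-γ to CIITA was transcribed as well and was in part higher in shUSP12. Of 10 listed genes, 9 passed the filter, 2 were at least 2-fold higher and 0 were 2-fold lower, with a median log2 ratio of 0.18. Over all tested rows 6.48% were 2-fold higher and 3.01% lower, with a median of −0.01. IFNG, the ligand, had 0 counts in both libraries. IFNGR1, the ligand-binding receptor chain, had 1227 counts in shCON and 1234 in shUSP12, and JAK1, a kinase bound to the receptor, had 6194 and 6269. The counts of IFNGR1 and JAK1 were thus near-equal, and the ratio of JAK1 lay below 0 with TMM and above 0 with total counts. JAK2, another listed kinase, had 129 and 211 counts (log2 ratio 0.63, 95% interval 0.32 to 0.97). IFNGR2, the other receptor chain, had 514 and 468 counts (−0.20, −0.39 to −0.02). Its interval included 0 with total counts or DESeq2 size factors. IRF1, a factor at the interferon-responsive CIITA promoter, had 273 counts in shCON and 581 in shUSP12, which gives a log2 ratio of 1.01 (95% interval 0.81 to 1.23). With upper quartile factors the ratios fell by 0.04 on the log2 scale, which takes IRF1 under 2-fold. SOCS1, the feedback inhibitor of the kinases, had 8 counts in shCON and 49 in shUSP12, which gives a log2 ratio of 2.31 (95% interval 1.45 to 3.83). IRF1 and SOCS1 were higher in shUSP12, while the interval of CIITA included 0.

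**Figure D4:**
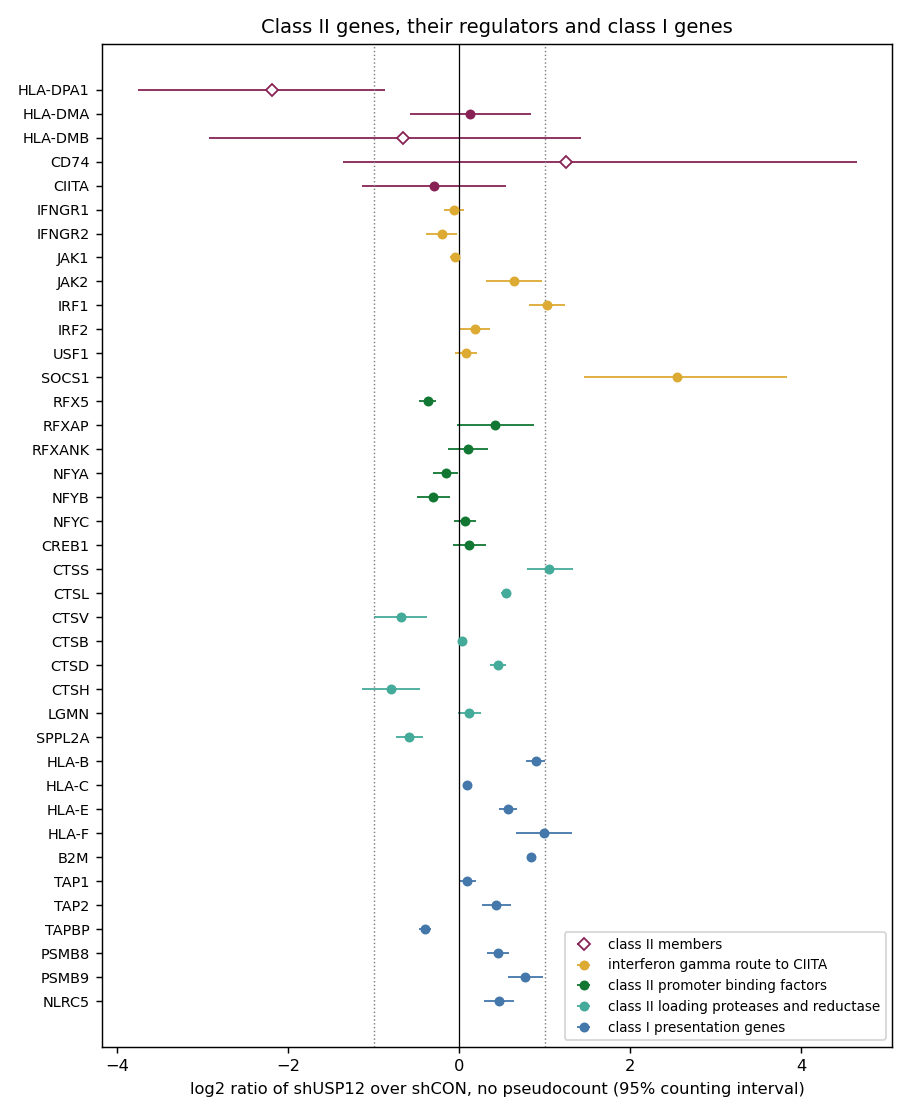
log2 ratio of shUSP12 over shCON without a pseudocount (x axis) for class II members, their regulators, class II processing enzymes and class I genes (y axis, 1 gene per line, 2 listed genes not drawn), with 95% counting intervals. Each point compares 1 library with 1 library, open diamonds have a mean below 1 CPM, and dotted lines mark 2-fold. The points of SOCS1, IRF1, CTSS and CD74 lie beyond 2-fold to the right, CD74 with 2 and 5 counts and an interval on both sides of 0, and that of HLA-DPA1 lies beyond it to the left.

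Of the 9 enzymes that prepare peptides and cleave CD74 in endosomes, 8 passed the filter. Of these, 1 was 2-fold higher and 0 were 2-fold lower, with a median of 0.07, beside 6.48% and 3.01% of all tested rows. CTSS, the protease best known for the last cut of CD74, had 169 counts in shCON and 368 in shUSP12, which gives a log2 ratio of 1.05 (95% interval 0.79 to 1.32). CTSL, a related protease, had 3594 and 5507 counts, and SPPL2A, which degrades the last membrane stump of CD74, had 792 and 554. IFI30, a lysosomal thiol reductase, had 0 and 2 counts, and another gene on the same strand covers 42.5% of its exon bases. Per length, CTSS had 5.17 TPM in shCON and 11.9 TPM in shUSP12, where its substrate CD74 had 0.0931 and 0.246 TPM.

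Of 5 ligands and co-receptors of CD74, 2 passed the filter, 0 were 2-fold higher or lower, and the median was −0.11. MIF, a ligand of CD74, had 34 and 21 counts, and the antisense gene MIF-AS1 overlaps 94.1% of its exon bases. Another gene, on the strand of MIF, covers 48.9% of them. CD44, its signalling partner, had 2511 and 3705 counts (log2 ratio 0.49, 95% interval 0.42 to 0.56). Of 9 ubiquitin ligases, costimulatory molecules and class II receptors, 5 passed, 0 were 2-fold higher or lower, and the median was −0.10. Both lists stand beside 6.48% of all tested rows that were 2-fold higher and 3.01% that were lower, so their counts of 0 say little. MARCHF8, a ligase that removes class II molecules from the surface, had 512 counts in shCON and 361 in shUSP12 (log2 ratio −0.57, 95% interval −0.77 to −0.38).

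Class I presentation genes served as the comparison, under the same contrast. All 12 passed the filter, 11 had a log2 ratio above 0, 1 was at least 2-fold higher and 0 were 2-fold lower, with a median of 0.52. Over all tested rows 6.48% were 2-fold higher and 3.01% lower, with a median of −0.01. B2M, the light chain, had 6337 and 11918 counts (log2 ratio 0.84, 95% interval 0.80 to 0.89). NLRC5, the class I counterpart of CIITA, had 461 counts in shCON and 669 in shUSP12, which gives a log2 ratio of 0.47 (95% interval 0.29 to 0.64). The interval of NLRC5 overlapped that of CIITA, from −1.14 to 0.55, so these counts do not show that the 2 ratios differed. HLA-B, a class I heavy chain, had 1069 and 2081 counts. How far sequence variation lowers the counts of class I or class II chains was not tested.

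Markers of cells that produce class II constitutively were read next to the members. The 2-fold calls in these lists stand beside 6.48% of all tested rows that were 2-fold higher and 3.01% that were lower. Of 6 general leukocyte markers, 3 passed the filter, and the list summed to 17.8 CPM in shCON and 21.3 CPM in shUSP12. The defining marker PTPRC (CD45) had 0 counts in shCON and 2 in shUSP12. CORO1A (26 and 111 counts) and LAPTM5 (39 and 101) were at least 2-fold higher, and CD37, the most counted of the 6, was lower (244 and 170 counts, log2 ratio −0.59, 95% interval −0.88 to −0.30). Of 7 B cell markers 1 passed, CD22 with 4 and 66 counts, and the list summed to 0.688 and 4.75 CPM, while MS4A1 had 0 counts in both. Of 16 macrophage and dendritic cell markers 4 passed, the list summed to 21.8 and 14.8 CPM, and SPI1, CD163 and FLT3 had 0 counts in both. CD68 also had 0, with 81.6% of its exon bases shared with a gene on its own strand. BATF3 was at least 2-fold lower in shUSP12 (157 and 77 counts), and the others that passed were ITGAX (115 and 88), ITGAM (80 and 58) and CD14 (21 and 31). LYZ had 0 and 7 counts. Their part in the member counts was not tested.

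Of 12 epithelial markers, 9 passed the filter, 4 were at least 2-fold higher and 0 were 2-fold lower. Of all tested rows, 6.48% were 2-fold higher and 3.01% lower. KRT8 had 85596 and 62180 counts, KRT18 24132 and 18096, and KRT7 13626 and 22378. CDH1 (1026 and 2496) was at least 2-fold higher, CLDN4 had 1348 and 2753 counts, and MUC1 656 and 499. The surfactant gene SFTPB had 0 counts in both. KRT19 (32 and 4452 counts), EPCAM (115 and 1566) and NKX2-1 (0 and 312), a lung lineage factor, were far higher in shUSP12. Of all 59125 rows, 119 had no more than 3 counts in shCON but 50 or more in shUSP12. Of these 119, 7 are annotated on the Y chromosome and 0 are class II genes. The reverse direction was not counted. The part of these differences between the libraries in the member counts was not tested. Over 10511 protein-coding rows outside the lists with a mean of at least 5 CPM, the log2 ratios closest to that of the summed members were those of RANBP1, PLPBP, LIN52, FGD4 and NEMP1, all at −0.33, a likeness over 2 libraries only.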

How the data were processed

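Stranded mRNA libraries of H1944 cells were analysed, 1 for shCON and 1 for shUSP12. The authors deposited unnormalised whole-number counts of fragments for each gene. By the study's methods the authors filtered reads with Seqtk, aligned them to GRCh38 with Hisat2 and counted uniquely mapped fragments with StringTie. The submitters' processing notes list Trimmomatic, HISAT2 2.0.4 and HTSeq 0.6.0 instead, so the counter is uncertain. The annotation release and strand setting were not given in the sources used here. Lines of spilled annotation text without a count, 91 per library, were dropped. Coordinates (counted from 1) and exon lengths came from GENCODE release 44 on GRCh38, where 99.1% of the Ensembl identifiers had a match. The 2 tables spell MARCHF1 and MARCHF8 as dates, so these were matched by identifier.

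CPM were computed with TMM factors of 0.955 for shCON and 1.05 for shUSP12 from edgeR 4.0.16 in R 4.3.3, fitted on the whole table. log2 ratios are of shUSP12 over shCON after adding 0.1 CPM, which understates changes of low genes, and their intervals carry no pseudocount. Only rows averaging 1 CPM or more over the 2 libraries entered counts of 2-fold changes. The procedure was tested on simulated data. Python 3.11.15, SciPy 1.17.1 and Matplotlib 3.10.9 were used. Alternatives were total counts, DESeq2 1.42.0 size factors, upper quartile factors, other pseudocounts, filters and thresholds, and the sum of rows sharing a symbol. Named were the 8 members, the genes of 11 further lists, USP12, protein-coding neighbours on chromosome 6, and the 5 rows closest in log2 ratio. PCDHB9 and SPDYE4 were named after the promoter search. Members and lists were chosen with earlier results of these data known. Gene lists were described by counts and medians, with no test. Some listed genes are not reported singly here, though the counts and sums over their lists include them.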

Additional observations from a re-analysis of the deposited data

How the results depend on the processing

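No paired analysis was possible because only a single library represented each condition, and for the same reason no library could be left out. Movement meant that a log2 ratio left its counting interval or that a count changed over 1.5 times. The median of the members has no such interval and was held against the range shared by those of HLA-DMA and CIITA (−0.57 to 0.55). Of 63 values under the alternatives, 61 did not move, including the 30 log2 ratios of the 5 members with a ratio. For low counts these intervals are wide, so staying within them says little. Those of HLA-DPA1 lay between −2.15 (pseudocount 0.01 CPM) and −0.91 (pseudocount 1 CPM, under 2-fold), those of HLA-DMA from 0.08 to 0.25, those of HLA-DMB from −0.63 to −0.14, those of CD74 from 0.19 to 1.18 and those of CIITA from −0.32 to −0.15. The number of members 2-fold lower was 1 in place of 0, HLA-DPA1, when the filter was 0.1 CPM or absent, because HLA-DPA1 then entered. At a filter of 5 CPM no member was left. The median of the members ranged from −0.27 to 0.05 and was above 0 with total counts alone, which shifted the median of all tested rows by 0.13 and made 79.6% of the changed rows higher against 68.3% with TMM. Each member had 1 row, so the sum of rows, also among the 63, could change nothing. The 63 hold the unplanned sum without HLA-DPA1 as well. Its log2 ratio was 0.01 in place of −0.33, within the interval of the full sum, and was counted as unmoved. Depth limits HLA-DRA, HLA-DRB1, HLA-DPB1, HLA-DMB and CD74, with at most 10 counts each over both libraries.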
